A study of Mus musculus with 12 samples.

Results

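Unstimulated bone marrow-derived macrophages of 2 mouse genotypes, which the labels name Itga9-Lyz2-cHet and Itga9-Lyz2-cKO (cHet and cKO below), were compared gene by gene. The comparison rests on 6 of the 12 libraries of the study, 3 untreated control libraries per genotype, and takes in the 13800 of 54532 listed genes that passed a filter on low counts. Per the labels' protocols, marrow cells from femurs of male mice, 8 weeks old, were cultured in M-CSF (50 ng/mL), which drives marrow precursors to become macrophages, and polyadenylated RNA was sequenced. The other 6 libraries came from cells of the same genotypes given Pg, as the labels call it, (multiplicity of infection 1:20, 2 hours). They are used here for how the spread between libraries was estimated and to ask whether a genotype difference in controls was also there under Pg. The labels give no alleles beyond the 2 genotype names, do not state which exons of Itga9 were targeted, and do not say how many copies of Cre each group carried. Whether the replicate libraries stem from different mice or culture dishes is not stated either, so p-values reflect only how much these libraries vary, and that variation may be technical.

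Itga9 encodes the alpha9 chain of the integrin alpha9beta1, a cell surface receptor that pairs with the beta1 chain and binds tenascin-C, osteopontin, VCAM-1 and a splice form of fibronectin. In Lyz2-Cre mice the Cre recombinase is written into the lysozyme gene Lyz2, so that floxed genes are deleted in macrophages and other myeloid cells and not in the stroma or the vessels of the marrow. Macrophages at rest keep a low level of immediate early genes, cytokines and their feedback inhibitors, which signals from adhesion receptors and Toll-like receptors can raise within minutes to hours.

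Library totals lay between 14527674 and 16793803 counts, and mitochondrially encoded genes took 0.962% to 1.45% of them. The macrophage genes Csf1r and Adgre1 were high in the 6 control libraries, at 4228 to 5244 CPM and 1221 to 1365 CPM (depth-scaled counts from edgeR, on TMM-adjusted library sizes), and neither passed the test between genotypes. In a principal component analysis of these 6 libraries, genotypes parted on the first axis (49.0% of variance). The second axis (19.5%) set the library numbered 1 of each genotype apart from the other 4. Itgax, an integrin gene of dendritic and foamy macrophages, showed this split: it stood at 115, 37.0 and 36.2 CPM in cHet and at 125, 42.4 and 45.1 CPM in cKO. Counts were therefore repeated without both of these libraries.

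Most genes that differed were lower in cKO. Of the 13800 genes, 711 (5.15%) had an adjusted p below 0.05 in edgeR's quasi-likelihood test, 294 (2.13%) higher and 417 (3.02%) lower in cKO. The higher genes had a median log2 difference (cKO minus cHet) of 0.42 and the lower genes one of -0.64. A difference of at least 2-fold was found for 47 of the higher and 141 of the lower genes, and 400 of the 711 differed by less than 1.5-fold. The large falls were in matrix, stromal and vascular genes of low level. Smaller falls were in immediate early genes, feedback inhibitors, cytokines and chemokines, and the clearest block of rises was at the end of chromosome X. Without both libraries numbered 1 the count was 395, and it was 426, 355 and 319 without cHet library 2, cHet library 3 and cKO library 3.

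**Figure D1:**
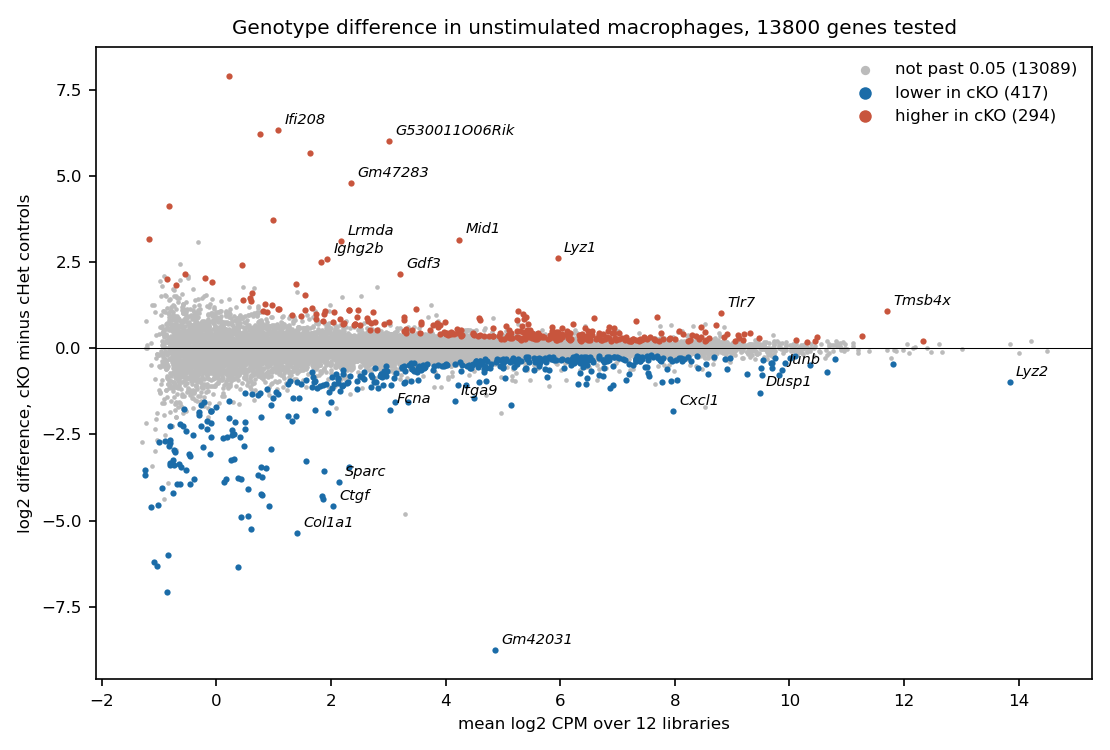
Each point is a gene; the x axis gives its mean log2 CPM over the 12 libraries and the y axis its log2 difference, cKO minus cHet controls. Red and blue points are the 294 higher and 417 lower genes, and the lowest point, Gm42031, lies at -8.77.

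Reads of the targeted gene were fewer in cKO but did not vanish. Itga9 (ENSMUSG00000039115, mm10 chromosome 9, 118606690 to 118901003, plus strand) stood at 32.3, 17.9 and 18.9 CPM in cHet and at 11.5, 5.98 and 6.42 CPM in cKO. The groups did not overlap, and library 1 was the highest of each genotype. The log2 difference was -1.53 ± 0.37 (SE), with an adjusted p of 0.0497. The call ended without any 1 of 5 of the 6 control libraries, at adjusted p-values of 0.0729 to 0.182, and held without cKO library 1. Without both libraries numbered 1 the difference was -1.56. Gene-level counts take in transcripts from which only the targeted exons are missing. The beta1 chain gene Itgb1 stood at 481, 481 and 486 CPM in cHet and at 566, 509.7 and 548 CPM in cKO and did not pass the test (0.17 ± 0.06, adjusted p 0.141).

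The driver locus differed as well. Lyz2 (ENSMUSG00000069516, chromosome 10, 117277331 to 117282321, minus strand), the lysozyme gene of macrophages into which Cre is inserted in Lyz2-Cre mice, stood at 17628, 20791 and 19678 CPM in cHet. In cKO it stood at 8746, 10000.0 and 10548 CPM, so that every cKO library lay below every cHet library. Its log2 difference was -0.99 ± 0.09 (adjusted p 6.39e-06), and it kept its call in all 16 alternative settings. The neighbouring lysozyme gene Lyz1 (chromosome 10, 117287797 to 117292868) was instead higher, rising from 20.4, 10.1 and 12.6 CPM to 138, 66.3 and 61.4 CPM. Its difference of 2.62 ± 0.43 (adjusted p 0.0113) lost its call without cHet library 2 or 3 and when only the 6 control libraries were fitted. The coding sequences are 447 bases long in both genes and differ at 22 of them (95.1% identity), with a shared run of 118 bases. Their first 90 bases are shown, from GENCODE M21 transcripts on GRCm38, because reads over such stretches can be given to either gene. Lyz2 was lower and Lyz1 higher in cKO, and what part shared reads had in either difference was not tested. Capitals mark the 7 bases that differ.
Lyz1: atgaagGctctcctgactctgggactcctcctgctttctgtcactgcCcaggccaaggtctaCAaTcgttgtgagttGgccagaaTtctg
Lyz2: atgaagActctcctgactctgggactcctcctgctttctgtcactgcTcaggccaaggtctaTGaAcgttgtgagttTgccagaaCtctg

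Of the tested genes within 5 Mb of Lyz2, 5 of 39 (12.8%) differed between genotypes, and within 5 Mb of Itga9 2 of 77 (2.60%), against 5.15% of all genes. These counts leave out Lyz2 and Itga9 themselves; the 5 near Lyz2 were all higher, Lyz1 and Irak3 among them, and the 2 near Itga9 were lower. The genotypes thus differed at Lyz2 as well as at Itga9. They also differed in a block of genes at the distal end of chromosome X, described next. Differences elsewhere compare cKO with cHet as labelled. Effects of the Itga9 genotype, of the difference at Lyz2 and of the difference at distal X cannot be told apart.

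A block of genes at the distal end of chromosome X was about 2-fold higher in cKO. From Tmsb4x (167207093 to 167209315) to the last tested gene of the chromosome, which ends at 170019281, 14 genes were tested, 11 were higher and 0 lower by the edgeR test, and their median log2 difference was 1.09. In the 10 Mb before Tmsb4x 33 genes were tested, with 1 higher, 2 lower and a median of 0.04. The start at Tmsb4x was chosen after the values were seen, so the contrast between these 2 stretches is partly set by that choice. Among 255 fixed bins of 10 Mb with at least 10 tested genes, the one from 160000001 to 170000000 on chromosome X had the highest share called. There 39 genes were tested, with 12 higher and 2 lower (35.9%). Over all of chromosome X before Tmsb4x 3.92% of 408 tested genes were called. The count of 11 was 11 or 12 in every alternative setting but DESeq2, with which it was not made. The setting without both libraries numbered 1 is included.

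Within the block, protein-coding genes of unlike function rose by like amounts. Tmsb4x, which encodes the actin-binding peptide thymosin beta 4, stood at 2006, 2081 and 1990.2 CPM in cHet and at 4294, 4084 and 4468 CPM in cKO (1.08 ± 0.06, adjusted p 4.16e-09). Tlr7, a receptor for single-stranded RNA in endosomes, stood at 281, 256 and 291 CPM and at 643, 534 and 506 CPM (1.02 ± 0.08). Its neighbour Tlr8 stood at 160.1, 129 and 147 CPM and at 299.8, 272 and 252 CPM (0.92 ± 0.08). In none of the 3 did the genotypes overlap. Prps2, a nucleotide synthesis enzyme, rose by 0.70 ± 0.10, Msl3, a chromatin factor, by 1.01 ± 0.07, Arhgap6 by 0.82 ± 0.12, and Hccs, which attaches haem to cytochrome c, by 1.10 ± 0.10. These 7 protein-coding genes before Mid1 lay between 1.63-fold and 2.14-fold. Arhgap6 and Hccs overlap on opposite strands, and the strand setting of the counting is not given in the sources used here, so their reads may be shared.

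Mid1, a ubiquitin ligase gene that in mice spans the boundary of the pseudoautosomal region shared by X and Y, rose further. It stood at 1.78, 2.50 and 2.55 CPM in cHet and at 27.7, 17.4 and 15.99 CPM in cKO, a log2 difference of 3.16 ± 0.23 (adjusted p 2.29e-06). Beside it G530011O06Rik rose from 0.334, 0.116 and 0.0623 CPM to 14.995, 10.8 and 9.92 CPM (6.02 ± 0.32), and Gm15726 by 2.51 ± 0.30. Both lie within Mid1 on its other strand, so reads of the 3 genes may be shared. Gm15247 also lies within Mid1 on its other strand, with the same limit. It held 2 counts in all 3 cHet libraries and 120 in cKO, a ratio of 61.5 (95% exact counting interval 16.7 to 513). On the Y chromosome the unnamed gene Gm47283 stood at 0.557, 0.175 and 0.311 CPM in cHet and at 6.72, 12.3 and 10.8 CPM in cKO (4.79 ± 0.42). Ddx3y and Eif2s3y, genes outside the rule for named genes and chosen after their values were seen, were higher by 0.26 and 0.33. The Y-linked Kdm5d and Uty, chosen likewise, did not pass, at 0.02 and -0.13. Xist, which silences the second X of females, had at most 2 counts in any of the 12 libraries, which the labels give as male.

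**Figure D2:**
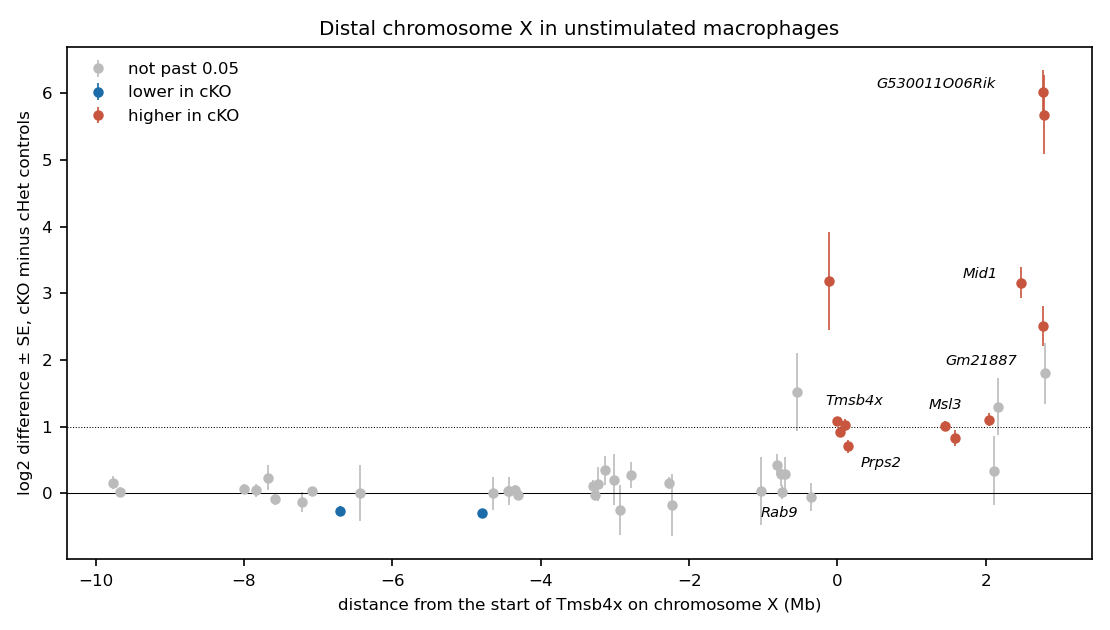
Genes of the last part of chromosome X by distance of their start from the start of Tmsb4x (x axis, Mb) and their log2 difference ± SE in controls (y axis). Points before 0 scatter around 0 apart from Gm15232 (3.19) and Gm1720 (1.52, not called), both of few counts, and those from 0 on lie mostly near or above the dotted line at 1.

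Under Pg the same 14 genes gave 11 calls, and the 7 protein-coding genes lay between 0.56 and 1.14. Mid1 alone of the 14 also passed the test of the difference between the 2 genotype differences, the interaction: it was at 5.07 ± 0.24 under Pg, higher by 1.91 ± 0.37 than in controls (adjusted p 0.0333).

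Genes of the extracellular matrix were the most strongly lowered group. Of 19 tested fibrillar collagens and collagen-processing genes 14 were lower and 0 higher by the edgeR test, with a median of -3.54, against 3.02% of all genes lower and a median of 0.00. Col1a1 and Col1a2, the chains of type I collagen, stood at 3.45, 5.30 and 4.54 CPM and at 6.23, 6.23 and 5.603 CPM in cHet. In cKO they stood at 0.179, 0.0623 and 0.0584 CPM and at 0.357, 0.187 and 0.350 CPM. The log2 differences were -5.36 ± 0.55 (adjusted p 1.25e-05) and -4.29 ± 0.31 (adjusted p 2.24e-07), with no overlap of the genotypes. Col6a1 and Col6a3, chains of the microfibrillar type VI collagen, were lower by -4.22 ± 0.43 and -4.58 ± 0.45. These are low levels: the 3 cKO libraries together held 5 counts of Col1a1 and 15 of Col1a2.

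Matricellular and proteoglycan genes gave 9 lower of 15 tested (median -3.06). Sparc, which encodes a collagen-binding glycoprotein, stood at 6.34, 8.15 and 7.16 CPM in cHet and at 0.655, 0.623 and 0.175 CPM in cKO (-3.89 ± 0.28, adjusted p 2.16e-07). Ctgf, a secreted growth factor binding protein and a target of the YAP and TAZ coactivators, stood at 6.12, 6.17 and 6.85 CPM and at 0.238, 0.374 and 0.175 CPM (-4.57 ± 0.26, adjusted p 9.75e-09). The proteoglycan gene Bgn was lower by -4.37 ± 0.35. In each of these genes every cKO library lay below every cHet library. Tnc, which encodes the alpha9beta1 ligand tenascin-C, stood at 4.01, 3.96 and 4.98 CPM and at 0.893, 0.125 and 0.292 CPM (-3.27 ± 0.40, adjusted p 6.55e-05).

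Basement membrane genes gave 8 lower of 14 tested (median -1.46), among them the type IV collagen gene Col4a1 (7.79, 7.34 and 9.53 CPM against 0.833, 0.561 and 0.817 CPM; -3.46 ± 0.26) and the perlecan gene Hspg2 (-3.56 ± 0.30). Contractile and pericyte markers gave 4 lower and 1 higher of 9 (median -1.29), and endothelial markers 5 lower of 11 (median -0.65). Acta2, smooth muscle actin, stood at 4.40, 4.48 and 5.98 CPM in cHet and at 1.55, 2.18 and 2.51 CPM in cKO (-1.25 ± 0.25). Plvap, a protein of endothelial fenestrae, was lower by -3.23 ± 0.57, and Cdh5, the cadherin of endothelial junctions, by -1.43 ± 0.29, the latter not past 0.05 without both libraries numbered 1. Pecam1 and Kdr, which are also endothelial, did not pass (0.20 and -0.28). Of 9 tested markers of marrow stroma 4 were lower, among them the chemokine gene Cxcl12 (-3.89 ± 0.55). Osteoblast and cartilage markers gave 0 calls of 2 tested.

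Over these 7 lists 44 of 79 tested genes were lower (55.7%, against 3.02% of all genes) and 1, Cnn2, was higher. The 44 lower genes summed to 195 CPM in cHet and 57.2 CPM in cKO, and their median level in cHet was 2.12 CPM. Vcam1, the highest of them, made up 70.7 CPM of the sum in cHet. Of 45 markers of these lists that were too low to test, 33 had fewer counts in cKO, 4 had more (Tagln, with 5 in cHet and 23 in cKO, Adipoq, Bglap and Cnn1) and 8 had 0 in both. Among the defining ones Pdgfra had 36 counts in the 3 cHet libraries and 0 in cKO, Dcn 16 and 1, and Postn 25 and 3, while Lum had 0 in both. Fewer cells of a type and less RNA per cell cannot be told apart in bulk RNA, and what part a smaller admixture of stromal and endothelial cells had in these differences was not tested. The counts of lower collagen, basement membrane and matricellular genes lay at 12 to 16, 6 to 8 and 7 to 11 in all alternative settings but DESeq2. List counts were not made with DESeq2. The endothelial count was 2 without both libraries numbered 1, and 3 without cHet library 3 or any 1 cKO library; the pericyte count was 2 without cKO library 3.

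Under Pg 35 of the 44 lower genes were also lower, all 44 had the same sign, and 0 of them passed the interaction test. The collagen list gave 13 lower of 19 there, with a median of -2.89.

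**Figure D3:**
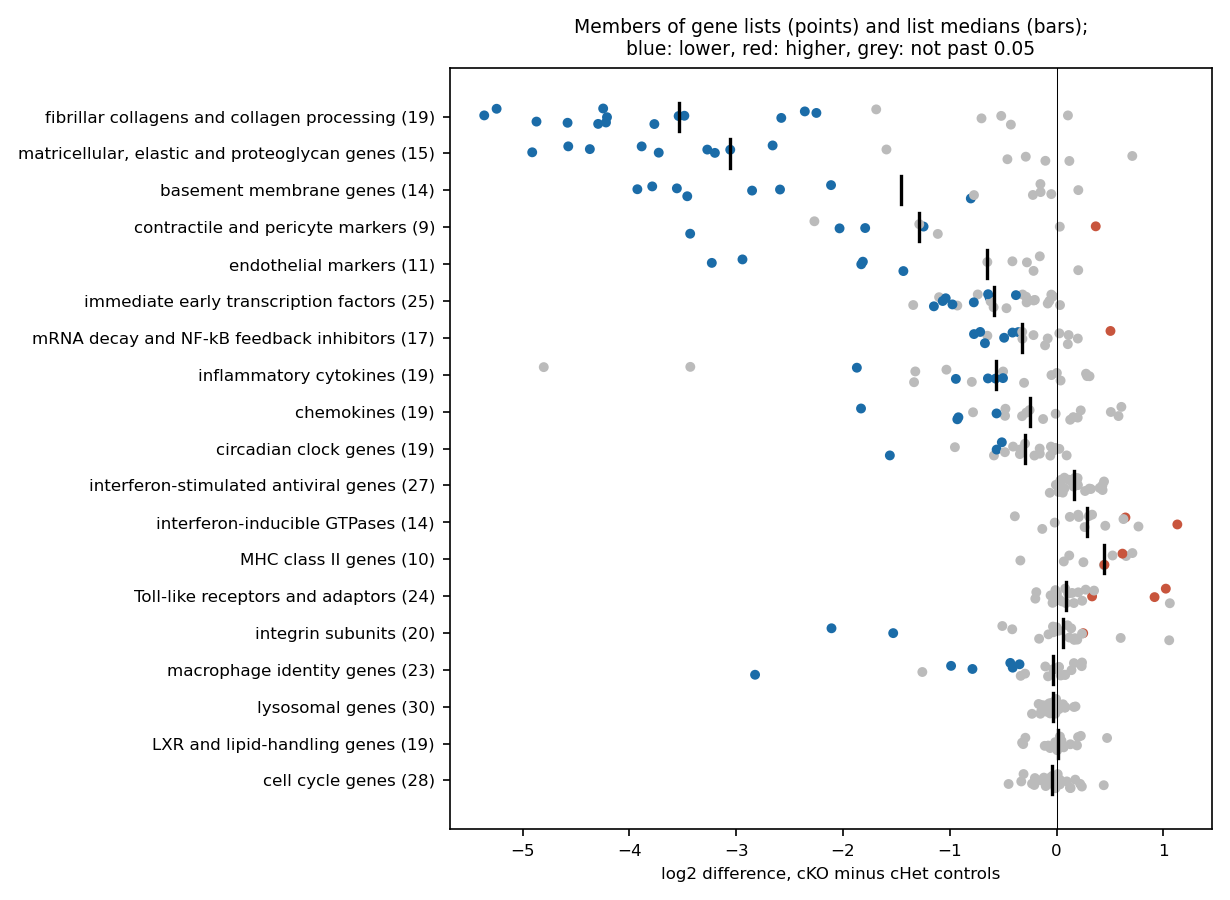
Log2 differences, cKO minus cHet controls (x axis), for members of 19 gene lists, with the number tested in brackets and the list median as a black bar. Matrix lists spread past -5, immediate early genes and feedback inhibitors lie mostly between -1.4 and 0.5, and lysosomal, LXR and cell cycle genes, with 0 calls each, stay near 0.

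Immediate early genes, which signals induce without new protein synthesis and many of which code for transcription factors, were lower in cKO as a group. Of 25 tested, 8 were lower and 0 higher by the edgeR test (32.0%, against 3.02% of all genes lower), 24 had a negative difference, and in 19 every cKO library lay below every cHet library (11.7% of all genes). Their median was -0.59. Junb, an AP-1 subunit, stood at 728, 770.0 and 739 CPM in cHet and at 477, 507 and 466 CPM in cKO (-0.63 ± 0.06, adjusted p 2.62e-06). Egr3, a zinc finger factor, stood at 57.9, 66.9 and 70.3 CPM and at 27.8, 38.3 and 27.1 CPM (-1.07 ± 0.20, adjusted p 0.017). Neither gene's genotypes overlapped. Ier3, a survival factor, was lower by -0.98 ± 0.11, Csrnp1 by -1.15 ± 0.17, Ier2 by -0.77 ± 0.12, Btg2 by -0.64 ± 0.14, Klf2 by -0.38 ± 0.09 and the nuclear receptor Nr4a1 by -1.04 ± 0.24. Fos and Egr1 had no overlap either, at 121, 103 and 102 CPM against 63.8, 56.5 and 51.0 CPM for Fos, but did not pass (adjusted p 0.106 and 0.0978). The count of 8 was 4 without cHet library 2 or cKO library 3, and 5 without cHet library 3, cKO library 1 or both libraries numbered 1.

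Among MAP kinase phosphatases and Sprouty inhibitors, which such signals induce, Dusp1, Dusp5 and Spry1 were lower and Spred2 was higher of 13 tested. That was 30.8% called, against 5.15% of all genes. The list as a whole was not to one side, with 7 negative and 6 positive differences and a median of -0.07. Without both libraries numbered 1 it gave 4 lower and 1 higher. Dusp1, the phosphatase that switches off p38 and JNK, stood at 245, 217 and 217 CPM in cHet and at 104, 91.7 and 83.5 CPM in cKO. No cKO library came near the cHet libraries, and the log2 difference was -1.29 ± 0.08 (adjusted p 4.94e-08). Dusp5, a phosphatase of nuclear ERK, stood at 31.7, 32.2 and 30.0 CPM and at 18.9, 19.3 and 17.8 CPM (-0.74 ± 0.11).

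Among 17 mRNA decay factors and NF-kB feedback inhibitors 6 were lower and 1 higher (median -0.32), and 4 and 1 without both libraries numbered 1. With all libraries that was 41.2% called, against 5.15% of all genes. Zfp36, whose product tristetraprolin destabilises cytokine mRNAs, stood at 387, 433 and 453 CPM in cHet and at 228, 266 and 252 CPM in cKO (-0.77 ± 0.07, adjusted p 3.95e-06). Tnfaip3, the ubiquitin-editing inhibitor A20, stood at 675, 618 and 661 CPM and at 419.8, 412 and 396 CPM (-0.67 ± 0.07). Nfkbia, the inhibitor that holds NF-kB in the cytoplasm, stood at 536, 548 and 547 CPM and at 409, 413 and 403 CPM (-0.41 ± 0.06). In none of the 3 did the genotypes overlap. The exception was Irak3, a decoy kinase that dampens Toll-like receptor signalling, which rose from 68.0, 68.5 and 75.8 CPM to 104, 102 and 95.4 CPM (0.50 ± 0.07).

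**Figure D4:**
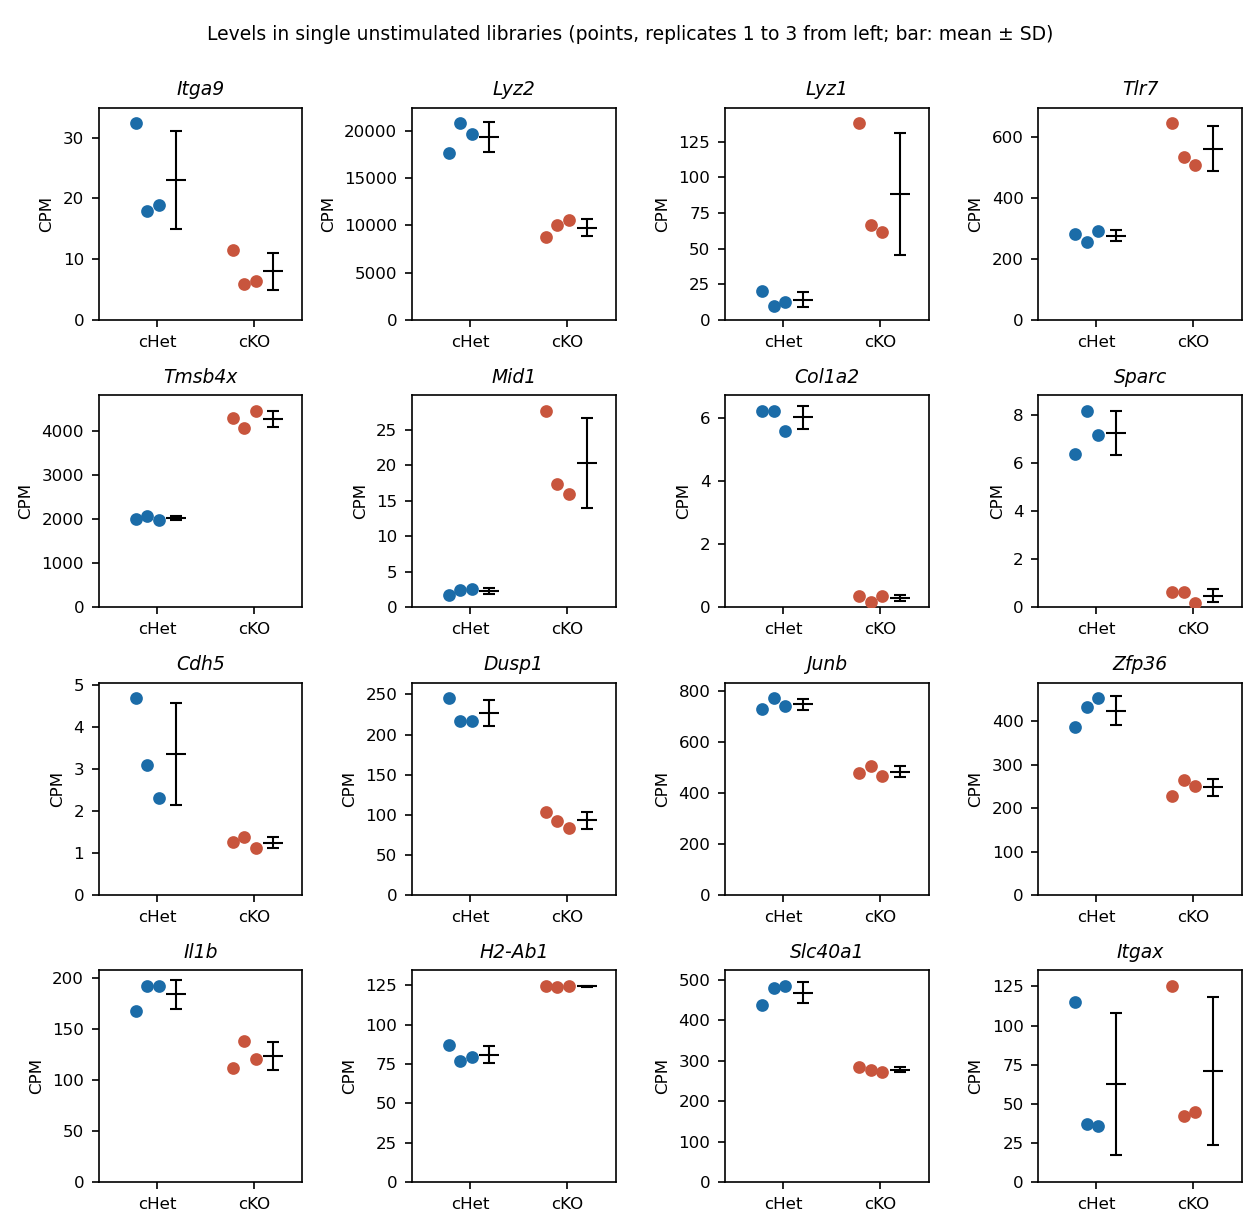
CPM (y axes, each starting at 0) of 16 genes in the 3 cHet (blue) and 3 cKO (red) control libraries, with mean ± SD in black. Dusp1, Junb, Zfp36 and the matrix genes show no overlap between genotypes, while Itgax follows the library number, at 115 and 125 CPM in the libraries numbered 1.

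Promoters of the lowered immediate early and feedback genes were searched on both strands for 4 motifs over 300 bases, 250 before and 50 after the RefSeq start (GRCm38.p6). The motifs were the CRE bound by CREB (TGACGTCA), the AP-1 site (TGANTCA), the CArG box of SRF and the NF-kB site, the last 2 by their usual patterns. They occurred in 1.79%, 7.81%, 1.63% and 4.51% of all 32851 promoters. Of 8 lowered immediate early genes 6 had a promoter in the table, and 1 of the 6 held a CRE, 2 an NF-kB site (33.3%) and 0 the others. Over all 20 tested immediate early genes with a promoter, lowered or not, 5 (25%) held an NF-kB site, 1 a CRE, 1 a CArG box and 0 an AP-1 site. Of the 9 lowered phosphatase, Sprouty and feedback genes 1 held a CRE, 1 an AP-1 site, 2 a CArG box and 2 an NF-kB site. The 250 bases before the start are shown for the 5 with a match whose RefSeq start lay within 50 bases of the deposited gene start. Capitals mark the motif: an NF-kB site in Ier3 and Nfkbia, a CRE in Btg2 and Dusp1, and 2 adjoining CArG boxes in Dusp5. They lie at chr17:35821463-35821712 (plus strand), chr12:55492648-55492897 (minus), chr1:134079156-134079405 (minus), chr17:26508473-26508722 (minus) and chr19:53528895-53529144 (plus), in that order.
Ier3: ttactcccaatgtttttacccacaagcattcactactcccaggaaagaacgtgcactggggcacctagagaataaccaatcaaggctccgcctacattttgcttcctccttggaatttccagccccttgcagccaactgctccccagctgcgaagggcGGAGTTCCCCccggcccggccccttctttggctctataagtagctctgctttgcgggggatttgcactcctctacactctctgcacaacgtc
Nfkbia: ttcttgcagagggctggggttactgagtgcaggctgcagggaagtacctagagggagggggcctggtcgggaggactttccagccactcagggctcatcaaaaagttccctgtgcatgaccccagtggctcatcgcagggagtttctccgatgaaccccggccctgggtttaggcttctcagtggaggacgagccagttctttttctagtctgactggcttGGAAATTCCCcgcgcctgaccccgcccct
Btg2: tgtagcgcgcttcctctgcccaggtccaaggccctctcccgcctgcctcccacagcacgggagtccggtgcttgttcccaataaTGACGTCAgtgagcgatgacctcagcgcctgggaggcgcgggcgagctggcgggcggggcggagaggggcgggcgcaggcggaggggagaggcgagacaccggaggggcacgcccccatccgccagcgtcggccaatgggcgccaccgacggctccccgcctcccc
Dusp1: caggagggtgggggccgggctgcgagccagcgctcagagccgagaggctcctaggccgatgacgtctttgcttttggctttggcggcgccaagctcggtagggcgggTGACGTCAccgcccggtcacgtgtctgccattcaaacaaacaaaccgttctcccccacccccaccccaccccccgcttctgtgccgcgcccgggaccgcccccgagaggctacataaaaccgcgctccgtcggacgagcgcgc
Dusp5: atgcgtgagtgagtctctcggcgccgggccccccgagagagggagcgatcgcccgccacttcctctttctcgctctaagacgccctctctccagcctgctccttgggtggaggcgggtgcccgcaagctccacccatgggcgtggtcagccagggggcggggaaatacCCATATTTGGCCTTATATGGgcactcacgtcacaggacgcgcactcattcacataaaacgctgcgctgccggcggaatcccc

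The log2 differences of these 5 genes ran from -0.41 (Nfkbia) to -1.29 (Dusp1). A match is a description of the letters and not of binding.

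Cytokine and chemokine genes were lower where they passed. Of 19 tested inflammatory cytokines 5 were lower (26.3%, against 3.02% of all genes) and 0 higher by the edgeR test (median -0.57). Il1b, interleukin 1 beta, stood at 167, 192 and 192 CPM in cHet and at 112, 138 and 120.4 CPM in cKO (-0.57 ± 0.08, adjusted p 0.000492). Tnfsf9, the 4-1BB ligand, stood at 59.5, 59.4 and 72.4 CPM and at 34.7, 35.1 and 29.7 CPM (-0.94 ± 0.09, adjusted p 2.47e-06). Il6, at 1.11, 0.582 and 0.996 CPM in cHet, was lower by -1.87 ± 0.48, and Il10 by -0.64 ± 0.16. Tnf, at 391, 300.5 and 345 CPM against 326, 273 and 241 CPM, overlapped between genotypes and did not pass. Of the 5, the calls of Il1b and Tnfsf9 held in every setting, and the list count fell to 2 without both libraries numbered 1, or without cHet library 3, cKO library 2 or cKO library 3.

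Of 19 chemokines 4 were lower (21.05%, against 3.02% of all genes) and 0 higher by the edgeR test (median -0.25). Cxcl1, which attracts neutrophils, stood at 36.5, 34.3 and 31.1 CPM in cHet and at 10.2, 9.47 and 8.93 CPM in cKO, well apart (-1.83 ± 0.16, adjusted p 2.54e-05). The monocyte attractant Ccl2 stood at 102, 92.4 and 103 CPM and at 59.6, 53.7 and 43.5 CPM (-0.92 ± 0.16). Without both libraries numbered 1 only Cxcl1 was called of the 4, and the count was 2 without cHet library 1, 2 or 3 or cKO library 2 or 3.

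Of 19 tested clock genes 3 were lower (15.8% called, against 3.02% of all genes lower) and 17 had a negative difference. The 3 were Per1 (-0.51 ± 0.13), Nr1d1 (-1.56 ± 0.31), whose product represses the clock, and Dbp (-0.56 ± 0.11). Without both libraries numbered 1 the count was 0, and without cHet library 3 it was 1. Per1 and Dusp1 are also targets of cAMP and of glucocorticoids. Of 11 cAMP-responsive genes 4 were lower (36.4%) and of 13 glucocorticoid-responsive genes 3 (23.1%), Dusp1 and Per1 in both lists. The others were Pde4b and Nr4a1 in the first and Klf9 in the second. Dusp1 and Pde4b kept their calls in every setting. The call of Per1 ended without any 1 control library, and that of Nr4a1 without any 1 but cKO library 2. Klf9 lost its call without cHet library 1 or 3 or cKO library 2 or 3. Per1, Nr4a1 and Klf9 were also lost without both libraries numbered 1.

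These lowered signalling genes differed from the matrix genes in what Pg cells showed. Of 93 tested genes in the immediate early, phosphatase, feedback, cytokine and chemokine lists 26 were lower in controls (28%, against 3.02% of all genes). Under Pg 2 of the 26 were lower, 14 had a negative sign and their median was -0.02, against -0.76 in controls. The interaction passed for 9 of the 26, against 74 of all 711 genes called in controls. It did for Dusp1, at 1385, 1323 and 1320.3 CPM in cHet and 1094, 1227 and 1276 CPM in cKO under Pg: the genotype difference there was higher by 1.12 ± 0.11 than in controls (adjusted p 0.00028). It also did for Junb, by 0.60 ± 0.08 (adjusted p 0.00338), and for Zfp36, by 0.76 ± 0.10 (adjusted p 0.00338). Cxcl1 stayed lower under Pg (-1.05 ± 0.13, adjusted p 0.000709). The interaction shares its control libraries with the comparison at rest, so the 2 tests are not independent. The 26 were also chosen by their calls in controls, so differences nearer 0 under Pg are partly built into that choice.

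**Figure D5:**
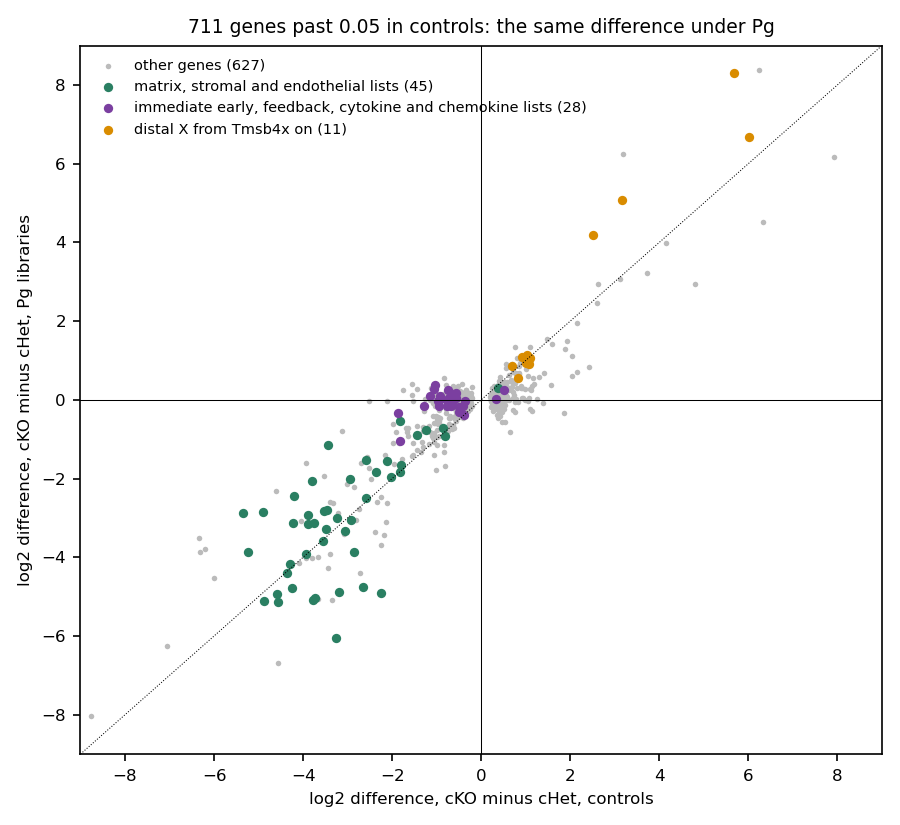
Log2 differences, cKO minus cHet, in controls (x axis) and in Pg libraries (y axis) for the 711 genes called in controls. Matrix, stromal and endothelial genes (green) and distal X genes (orange) scatter about the dotted line of equal difference, and immediate early, feedback, cytokine and chemokine genes (purple) lie nearer 0 on the y axis, apart from Cxcl1 at -1.05.

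Over all 711 genes, 145 were called in the same direction under Pg (48 higher, 97 lower), which is 20.4% of the calls in controls and 56.9% of the 255 calls (1.85%) under Pg. Those 255 were 90 higher (0.652%) and 165 lower (1.2%) genes. Another 6 genes were called in opposite directions. The interaction passed for 99 genes (0.717%), of which 74 were called in controls. When 1 library was left out, this count lay between 42 and 207: it was 42 without cHet control 3 or cKO control 3, 61 without cHet control 2, and 53, 45 and 43 without cHet Pg 2, cKO Pg 1 and cKO Pg 2. The highest, 207, was without cKO Pg 3.

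Some MHC class II genes and some interferon-inducible GTPases were higher. Of 10 tested MHC class II genes 2 were higher (20.0%, against 2.13% of all genes) and 9 had a positive difference (median 0.45). H2-Ab1, a class II beta chain, stood at 86.9, 76.7 and 79.1 CPM in cHet and at 125, 124 and 124 CPM in cKO (0.62 ± 0.14, adjusted p 0.0312), and Ciita, the class II transactivator, rose by 0.45 ± 0.12. Cd74, the invariant chain, stood at 259, 212 and 228 CPM and at 426, 358 and 359.9 CPM without passing (adjusted p 0.0624). Both calls ended without both libraries numbered 1; that of H2-Ab1 also ended without any 1 control library, and that of Ciita without any 1 but cKO library 2.

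Of 27 interferon-stimulated antiviral genes 0 were called by the edgeR test (2 had an unadjusted p below 0.05). Of the 27, 25 had a positive difference (median 0.16), against 6981 of all 13800 genes. Only 1 had no overlap between genotypes, against 23.5% of all genes, and the median under Pg was -0.46. The summed level of the list followed the library number, with 2938, 1934 and 2064 CPM in cHet and 3377, 2060 and 2331 CPM in cKO. Of 14 interferon-inducible GTPases 2 were higher (14.3%, against 2.13% of all genes). Irgm2, which helps to mark vacuoles for attack, stood at 54.6, 42.2 and 44.3 CPM and at 89.8, 59.1 and 71.7 CPM (0.64 ± 0.13); under Pg it was lower in cKO (-0.82 ± 0.15), an interaction of -1.47 ± 0.20 (adjusted p 0.00625). Its call in controls ended without cHet library 2 or 3. The transcription factor gene Irf1, chosen after its values were seen, was lower, at 757, 694 and 767 CPM against 496, 414 and 392 CPM (-0.77 ± 0.09).

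Toll-like receptors and adaptors gave 3 higher (12.5%, against 2.13% of all genes) and 0 lower by the edgeR test of 24 tested. They were Tlr7 and Tlr8 of the distal X block and Tlr4, the lipopolysaccharide receptor (0.33 ± 0.08), which lost its call without both libraries numbered 1 and without any 1 of 5 control libraries. Fpr1, a receptor for bacterial formyl peptides, was higher, from 13.9, 13.9 and 14.8 CPM to 25.3, 27.6 and 26.3 CPM (0.90 ± 0.13). Complement components and regulators gave 2 higher and 5 lower of 19 tested (1 and 3 without both libraries numbered 1). With all libraries that was 36.8% called, against 5.15% of all genes. C3, the central component, rose from 202, 174 and 211 CPM to 264, 278 and 284 CPM (0.49 ± 0.09), C3ar1 was the other higher gene, and C4b, Cd59a, Serping1, Vsig4 and Fcna were lower.

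Of 23 macrophage identity genes 6 were lower (26.1%, against 3.02% of all genes) and 0 higher by the edgeR test, with a median of -0.03. The count was again 6 without both libraries numbered 1. One of the 6 is Lyz2, the locus of the Cre insertion. Cd5l, a secreted scavenger-family protein, stood at 257, 242 and 244 CPM in cHet and at 134, 132 and 164 CPM in cKO (-0.79 ± 0.08, adjusted p 8.75e-06). Vsig4, a complement receptor, stood at 1.89, 2.10 and 2.99 CPM and at 0.179, 0.498 and 0.292 CPM (-2.82 ± 0.39), and Fcna, the complement lectin ficolin A from outside this list, fell from 12.9, 12.5 and 11.95 CPM to 2.92, 3.86 and 4.09 CPM (-1.78 ± 0.17). None of these 3 overlapped. Each was also lower under Pg, at -0.91, -3.06 and -1.50. The transcription factor genes Cebpb and Irf8 were lower by -0.43 ± 0.08 and -0.35 ± 0.07, and Siglec1 by -0.41 ± 0.08.

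Slc40a1, the iron exporter ferroportin, stood at 438, 479.8 and 485 CPM in cHet and at 284, 278 and 272 CPM in cKO (-0.75 ± 0.07, adjusted p 2.18e-06). Clec10a, a galactose-binding lectin, stood at 189, 195 and 197 CPM and at 136, 133 and 129 CPM (-0.54 ± 0.06). Both were past the interaction threshold, with no call under Pg. Clec10a was the only one called of 15 C-type lectin receptors, of which 9 had a positive and 6 a negative difference. That is 6.67% called, close to the 5.15% of all genes. Of 22 NRF2 and iron genes 3 were lower (13.6%, against 3.02% of all genes), Slc40a1, Cat and Hmox1. Cat lost its call without cHet library 2 or 3 or cKO library 3, and Hmox1 without cHet library 1 or cKO library 2 or 3.

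Among 20 integrin subunits 1 was higher and 2 were lower (0 and 2 without both libraries numbered 1). Over all genes 2.13% were higher and 3.02% lower. Of the 2 lower subunits 1 was Itga9, the targeted gene itself. Few calls remain beside it, so no excess over all genes is read from this list. Besides Itga9, Itgad, the alphaD chain of a leukocyte integrin that binds VCAM-1, stood at 4.34, 3.67 and 3.17 CPM in cHet and at 1.07, 0.810 and 0.700 CPM in cKO (-2.11 ± 0.31, adjusted p 0.000492). Itgal, a chain of LFA-1, was higher by 0.25 ± 0.07, a call that ended without any 1 control library. Of 14 alpha9beta1 ligand genes 2 were lower (14.3%, against 3.02% of all genes), Tnc and Vcam1. Vcam1 stood at 74.9, 60.2 and 77.1 CPM and at 46.7, 34.6 and 35.7 CPM (-0.86 ± 0.12). Spp1, which encodes osteopontin, had a difference of -0.19 and did not pass.

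Actb and Actg1, the cytoplasmic actins, were higher by 0.22 ± 0.06 and 0.37 ± 0.06, the latter in every setting. Of 24 focal adhesion and actin linkers 2 were higher and 2 lower (16.7% called, against 5.15% of all genes). Vasp and Flna were higher by 0.30 ± 0.06 and 0.24 ± 0.07. The call of Flna ended without any 1 control library but cHet library 1. Fermt2, an integrin activator, had 53 counts in cHet and 3 in cKO, a ratio of 17.2 (95% exact counting interval 5.59 to 86.3). Parva had 30 counts and 0, at least 9.76-fold lower in cKO against a floor of 3 counts over the group. Both were low, at most 1.28 CPM in any control library, and Fermt2 missed the threshold without both libraries numbered 1 (adjusted p 0.0664).

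Further single genes differed widely. The noncoding RNA Gm42031 (chromosome 8, 85125872 to 85132289) stood at 67.6, 59.4 and 67.0 CPM in cHet and at 0.0595, 0.249 and 0.117 CPM in cKO, the smallest p of the comparison (-8.77 ± 0.25, adjusted p 4.13e-12). Lrmda, a gene of melanocyte differentiation, rose from 0.835, 1.16 and 0.685 CPM to 7.91, 7.54 and 8.05 CPM (3.12 ± 0.23). The interferon-inducible Ifi208 held 3 counts in cHet and 269 in cKO, a ratio of 91.9 (95% exact counting interval 31.1 to 448). Gdf3, a TGF-beta family ligand, rose from 3.95, 2.27 and 3.05 CPM to 17.2, 11.2 and 13.1 CPM (2.15 ± 0.25). All 4 were called under Pg in the same direction.

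Of 13 tested B and plasma cell genes 3 were higher (23.1% called, against 2.13% of all genes higher), Ighg2b (1.39, 0.815 and 0.996 CPM against 8.21, 6.23 and 5.19 CPM; 2.60 ± 0.44), Ighg2c (3.73 ± 0.41) and Jchain (1.87 ± 0.36). Of all 13, 6 had a positive and 7 a negative difference, with a median of -0.12, so the list as a whole was not to one side. Of 14 dendritic cell genes 2 were lower (Batf3 and Irf8, 14.3%). Of 7 mast cell and basophil genes 1 was lower (Gata2, 14.3%) and 6 had a negative difference (median -0.67). Of 16 neutrophil genes 1 was lower (Mmp9, 6.25%), and of 8 erythroid and 3 T and NK genes 0 were called by the edgeR test. Over all genes 3.02% were lower. Without both libraries numbered 1 the count of higher B and plasma cell genes stayed at 3 and the dendritic at 2, and Mmp9 and Gata2 were not called. Mmp9 was also lost without any 1 control library, Gata2 without cHet library 1 or 2 or cKO library 2 or 3, and Batf3 without cKO library 2 or 3. Lysosomal genes (30 tested), cholesterol synthesis genes (21), LXR and lipid-handling genes (19), cell cycle genes (28), MHC class I genes (17) and inflammasome genes (13) also gave 0 calls by the edgeR test, with medians between -0.04 and 0.06. Their members with an unadjusted p below 0.05 numbered 4, 1, 1, 1, 2 and 5 in that order, and limma voom called 1 LXR gene and 0 in the other lists named here.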

How the data were processed

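The deposited file is a table of raw counts of reads per gene. Per the submitters' processing notes, the authors used fastp, HISAT2 2.0.5, featureCounts 1.5.0-p3 and the build mm10. The strand setting is not given in the sources used here. Of the 54532 genes, 99.8% have an ID in the GENCODE M21 annotation on GRCm38, which supplied the Lyz coding sequences.

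Groups follow the labels. edgeR 4.0.16 (R 4.3.3) was run with filterByExpr, TMM scaling and the robust quasi-likelihood F test on all 12 libraries, with 1 mean per group (8 residual degrees of freedom). Contrasts were cKO minus cHet in controls and under Pg, and the difference of these, the interaction. P-values were adjusted by Benjamini-Hochberg over all 13800 tested genes, and a gene is called below 0.05. Levels are CPM and differences are log2 ± SE. Library totals of 14527674 to 16793803 in controls set the counting error, and exact intervals (95%) cover that error only. On simulated data for the control comparison (13460 genes), 68% of genes changed by 1.5-fold, 88% by 2-fold and 100% by 4-fold were recovered, with 5 false calls. Changes were set only in genes with a mean above 2 CPM, and no split by library number was simulated. The rates therefore do not cover genes of lower level, many matrix genes among them.

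Named genes are Itga9, Lyz2, Lyz1 and Mid1, then called genes by rule. The rule takes the 12 largest rises and 12 largest falls that do not overlap between genotypes (mean log2 CPM from 1 up), the 10 smallest p-values, the 10 most abundant called genes, and up to 4 genes per list, filled by mean expression. Further genes are examples from the counts of list members called. The compared groups, genes and lists were chosen with earlier results of these data known. Alternatives were DESeq2 1.42.0, limma 3.58.1 (voom), other scalings and filters, the control libraries alone, replicate blocks and leaving out libraries.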

Additional observations from a re-analysis of the deposited data

Results flagged for a closer look

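For 15 of the named genes called in controls, the genotype difference under Pg was itself different from that in controls by the edgeR interaction test (adjusted p below 0.05), given here as the log2 difference under Pg minus that in controls. The largest was Mid1, 1.91 (adjusted p 0.0333), whose higher level in cKO grew under Pg. Lower levels in cKO were nearer to cHet under Pg for 12 genes. Among immediate early genes the values were 0.60 for Junb, 0.96 for Ier3 and 1.24 for Csrnp1. Among feedback inhibitors they were 1.12 for Dusp1, 0.99 for Dusp5, 0.76 for Zfp36 and 0.52 for Tnfaip3. The cytokine genes Tnfsf9 and Il1b had 0.79 and 0.61. The clock gene Dbp had 0.85, the iron exporter Slc40a1 0.55 and the lectin Clec10a 0.50. Irgm2, an interferon-inducible GTPase, went from higher to lower in cKO (-1.47), and Acod1, which makes itaconate, was higher in controls (0.32 ± 0.07) with -0.24 under Pg, a value of -0.57. The interaction uses the control libraries that also gave the calls in controls, so a smaller difference under Pg is partly built into the choice of genes.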

How the results depend on the processing

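Of 119 named genes called in controls, 66 missed the threshold in 0 of the 16 alternative settings and Parva in 0 of the 13 that tested it. Another 52 missed it in at least 1, and 0 changed direction. A gene to which a setting gave no adjusted p was counted there as not missing the threshold. The 711 calls became 1101 with no low-count filter, 319 to 591 without 1 control library, and 395 without both control libraries numbered 1, a setting chosen after seeing the data. The 99 interaction calls became 249 with DESeq2, 389 with no filter and 42 to 207 without 1 library. Itga9 missed the threshold with voom (-1.55, adjusted p 0.0651), no filter (-1.53, 0.0876) and the control libraries alone (-1.53, 0.0896), and lay between -1.90 and -1.20 without 1 library. Deviations of same-numbered control libraries of the 2 genotypes correlated at 0.319 for number 1, 0.0512 for number 2 and 0.0603 for number 3. Other pairs lay at -0.19 to 0.155. The numbers were not taken to pair libraries, so the main fit leaves the split of the libraries numbered 1 in the spread between libraries. A replicate block gave 1798 calls in the 6 controls and 549 over 12 libraries, with Itga9 at -1.54 (adjusted p 3.14e-11) in the former and -1.53 (adjusted p 0.0767) in the latter. Depth limits genes of a few counts per library, among them many matrix genes in cKO.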

Other observations

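In a list of splicing factors chosen after values were seen, 7 of 35 tested genes were higher in cKO controls (2.13% of all genes were) and 0 lower by the edgeR test, 30 had a positive difference, and the median log2 difference was 0.12. The called genes were Luc7l3, Hnrnpdl, Hnrnpa3, Tra2a, Srsf10, Srsf1 and Srsf2. Luc7l3, a U1-associated factor, stood at 46.6, 50.6 and 49.2 CPM in cHet and at 81.8, 70.0 and 75.3 CPM in cKO (0.63 ± 0.09). Under Pg 1 of the 35 was higher and the median was 0.02.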
